A study of Homo sapiens with 28 samples.

Results

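H3K27ac, the acetylated form of lysine 27 on histone H3, was compared between early G1 cells, which have just divided, and G2/M cells, which are about to divide or are dividing. The 2 libraries labelled H3K27ac DN, called early G1 here, and H3K27ac AzH, called G2/M here, were taken from the 28 samples of the series. Their peak lists were matched. The labels give the sorted fraction and not the phase. The cells were a Fucci line of human embryonic stem cells, pluripotent cells from the early embryo. Fucci reporters are fluorescent proteins fused to parts of the cell cycle regulators CDT1 and geminin, so that colour follows the cycle and living cells can be sorted by it. All fractions came from the same culture conditions, a defined medium with heregulin, activin A, an IGF-1 analogue and FGF2 and without serum or feeder cells. The G2/M fraction joins G2 with mitosis, and the labels do not say what part of it was mitotic. There was 1 library per fraction and mark, so no test between fractions was possible, and every interval below is an exact 95% binomial interval that covers counting error alone.

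H3K27ac is written by the acetyltransferases p300 and CBP and marks active promoters and active enhancers, while H3K4me3 marks promoters. During mitosis chromatin condenses and most transcription stops, and it resumes as cells enter G1. Acetylation and methylation of the same lysine exclude each other on 1 histone tail. Places listed for H3K27ac and H3K27me3 together stay in the main counts below. Their shares are also given, and they were left out of the naming of single places. A peak list shows where a mark passed the caller's limit, and it cannot tell fewer cells carrying the mark from less of the mark per cell.

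The early G1 list held 30168 peaks covering 9.94 Mb, and the G2/M list held 19525 peaks covering 5.60 Mb. The median peak was 250 bp wide in early G1 and 200 bp wide in G2/M. The read depth behind the lists is unknown. Peak heights, the authors' own values of unstated scale, had a median of 25.8 in early G1 and 18.0 in G2/M, and the 5th percentile was 19.9 in early G1 and 14.1 in G2/M. Heights were missing on the chromosomes coded 22 to 24 and for 1 other early G1 peak, which leaves 28459 early G1 and 18380 G2/M heights. A peak with at least 1 bp of overlap in the other list was called kept, an early G1 peak without one gained, and a G2/M peak without one lost. These words describe listing only.

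Acetylation present in early G1 and unlisted in G2/M lay more often at H3K4me3, and acetylation listed in G2/M alone lay mostly far from it. Of the early G1 peaks, 10945 (36.3%, interval 35.7 to 36.8) were kept and 19223 were gained, which is 63.7% of the list. Of the G2/M peaks, 11860 (60.7%, 60.1 to 61.4) were kept and 7665 were lost, which is 39.3%. These numbers depend on list length and matching: with 19525 peaks in each list 10474 were gained and 9199 lost, and 4180 were lost when a partner within 500 bp counted. Gained peaks overlapped an early G1 H3K4me3 peak in 46.5% of cases (8931 peaks, 45.8 to 47.2), kept early G1 peaks in 29.9% (3273 peaks, 29.0 to 30.8). Lost peaks overlapped a G2/M H3K4me3 peak in 11.4% of cases (872 peaks, 10.7 to 12.1), kept G2/M peaks in 27.02% (3204 peaks, 26.2 to 27.8). Peaks over 2.5 kb from any H3K4me3 peak of the 4 fractions, called distal by distance alone, made up 42.9% of gained peaks (8256) and 57.1% of kept early G1 peaks (6250). They made up 70.7% of lost peaks (5421) and 56.4% of kept G2/M peaks (6688). The rest, called flanking, lay within 2.5 kb of H3K4me3 without overlapping a peak of their own fraction, and numbered 2036 gained, 1422 kept in early G1, 1968 kept in G2/M and 1372 lost.

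**Figure D1:**
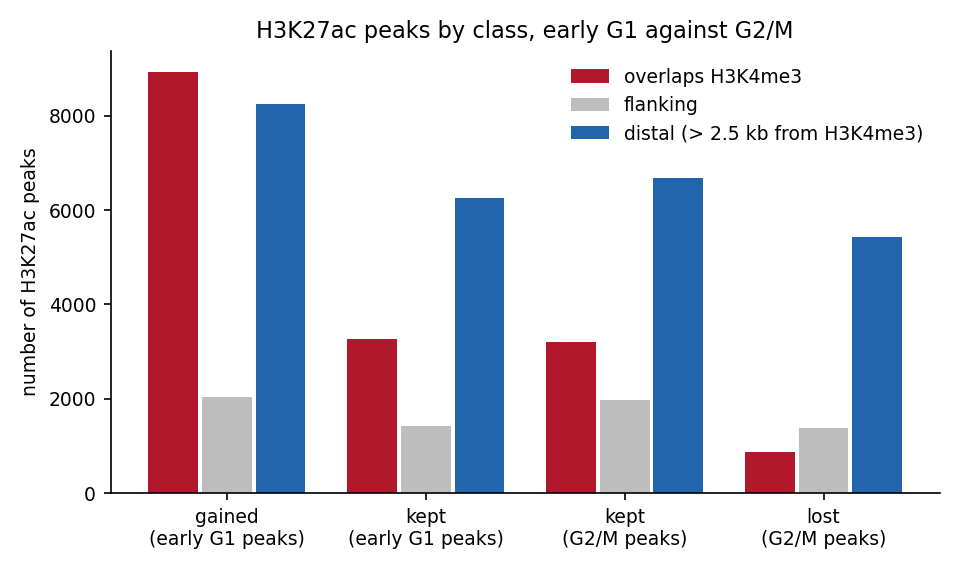
Bars give the number of H3K27ac peaks (vertical axis) that were gained or kept in the early G1 list and kept or lost in the G2/M list, split into peaks overlapping H3K4me3, flanking peaks and distal peaks. The H3K4me3 bar is the tallest among gained peaks (8931) and the shortest among lost peaks (872).

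Read by class, the gained share was higher at H3K4me3 than at distal places, and the lost share was lower. At H3K4me3, 73.2% of early G1 peaks were gained (72.4 to 74.0) and 21.4% of G2/M peaks were lost (20.1 to 22.7). At distal places 56.9% of early G1 peaks were gained (56.1 to 57.7) and 44.8% of G2/M peaks were lost (43.9 to 45.7). The early G1 list had 12204 peaks at H3K4me3 and the G2/M list 4076, while distal peaks were closer in number, 14506 in early G1 and 12109 in G2/M. Kept peaks at H3K4me3 were near equal in number, 3273 in early G1 and 3204 in G2/M. Kept shares by class, also those by height and width below, thus partly restate these counts. With both lists cut to the 19525 peaks with the best scores, overlap with H3K4me3 was found for 45.8% in early G1 (45.1 to 46.5) and for 20.9% in G2/M (20.3 to 21.5), so the gap was present at equal list length. With H3K4me3 of any fraction in place of the same fraction, the overlap was 47.7% for gained, 31.7% for kept early G1 and 14.9% for lost peaks.

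Across the distal limit, early G1 peaks 2001 to 2500 bp from H3K4me3 were kept in 138 of 274 cases (50.4%, 44.3 to 56.4), those 2501 to 3000 bp away in 117 of 272 (43.0%, 37.1 to 49.1). For G2/M peaks the same shares were 137 of 245 (55.9%, 49.5 to 62.2) and 133 of 237 (56.1%, 49.5 to 62.5).

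The difference in make-up held at every height. When each list was cut into 10 bins of equal size by height, the share of early G1 peaks overlapping H3K4me3 was 28.2% in the lowest bin (26.5 to 29.8) and 56.2% in the highest (54.3 to 58.0). In the G2/M list it was 13.6% in the lowest bin (12.1 to 15.3) and 26.1% in the highest (24.1 to 28.1). The tallest early G1 peaks were therefore mostly at H3K4me3 and the tallest G2/M peaks mostly distal (56.3%, 54.0 to 58.5). That distal share was below the 62.0% of the whole G2/M list and the 69.4% of its lowest bin. Overlap with H3K4me3 was thus more frequent among tall peaks than among low ones in both lists.

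Tall peaks were kept more often than low ones, but the 2 classes differed at like height. In the tallest bin of early G1 peaks, 71.4% of those at H3K4me3 were kept (69.1 to 73.6) and 95.95% of the distal ones (94.5 to 97.1). In bin 7, counted from the lowest, the shares were 22.2% at H3K4me3 (20.0 to 24.6) and 55.8% at distal places (52.9 to 58.5). In the G2/M list the order of the classes was the other way round through the lower 9 bins. There, 60.8% of the lowest H3K4me3 peaks were kept (54.4 to 66.9) and 27.5% of the lowest distal peaks (25.02 to 29.99). In the tallest bin of the G2/M list the shares were 86.6% at H3K4me3 (83.3 to 89.6) and 96.8% at distal places (95.5 to 97.8).

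**Figure D2:**
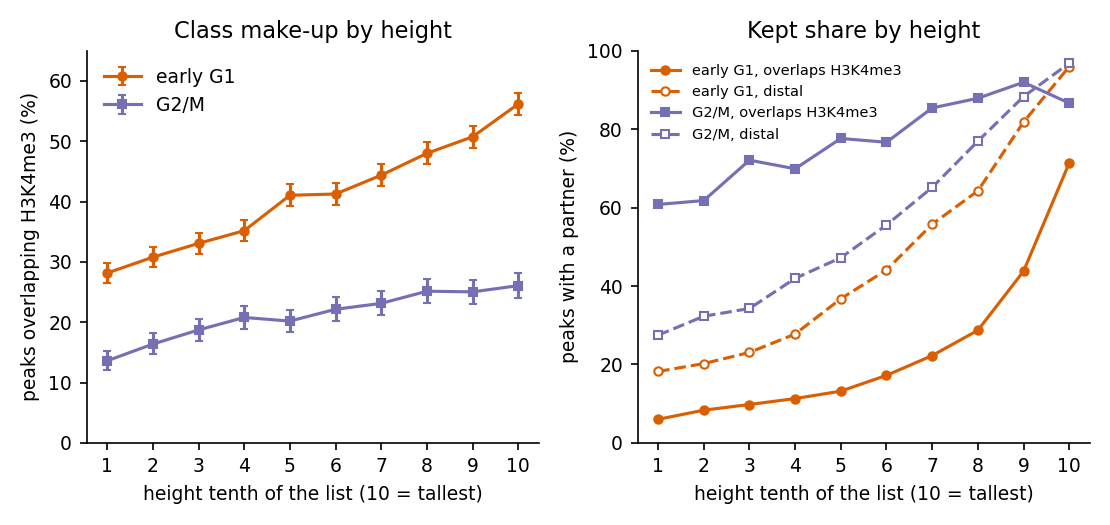
The left panel plots the share of peaks overlapping H3K4me3 (vertical axis, percent, bars show exact 95% intervals) against the height bin of the list (1 lowest, 10 highest), for early G1 and G2/M; early G1 lies above G2/M in every bin, ending at 56.2% and 26.1%. The right panel plots the share of peaks with a partner in the other list for H3K4me3 peaks (filled markers, solid lines) and distal peaks (open markers, dashed lines); early G1 peaks at H3K4me3 have the fewest partners in every bin.

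Gained and lost peaks were narrow and low, and kept peaks were wider. The median width was 200 bp for gained peaks and 400 bp for kept early G1 peaks (quartiles 125 and 275 bp, against 250 and 675 bp). It was 150 bp for lost peaks and 275 bp for kept G2/M peaks (quartiles 100 and 225 bp, against 175 and 450 bp). Gained peaks at H3K4me3 were a little wider than distal ones, with medians of 225 and 175 bp, and 813 of them reached 500 bp against 325 distal ones. Lost peaks had a median of 150 bp in each class, and 84 of the 7665 (1.10%) reached 500 bp. Among peaks of at least 1000 bp, 995 of 1042 in early G1 were kept (95.5%, 94.0 to 96.7) and 441 of 445 in G2/M (99.1%, 97.7 to 99.8). A wider peak has more room for an overlap of 1 bp, so part of this width difference follows from the matching, and it was not adjusted for. The 47 wide gained peaks included 40 at H3K4me3 and 6 distal ones. Gained peaks, though 63.7% of the early G1 list by number, made up 44.0% of its covered length, and lost peaks 23.7% of that of G2/M.

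**Figure D3:**
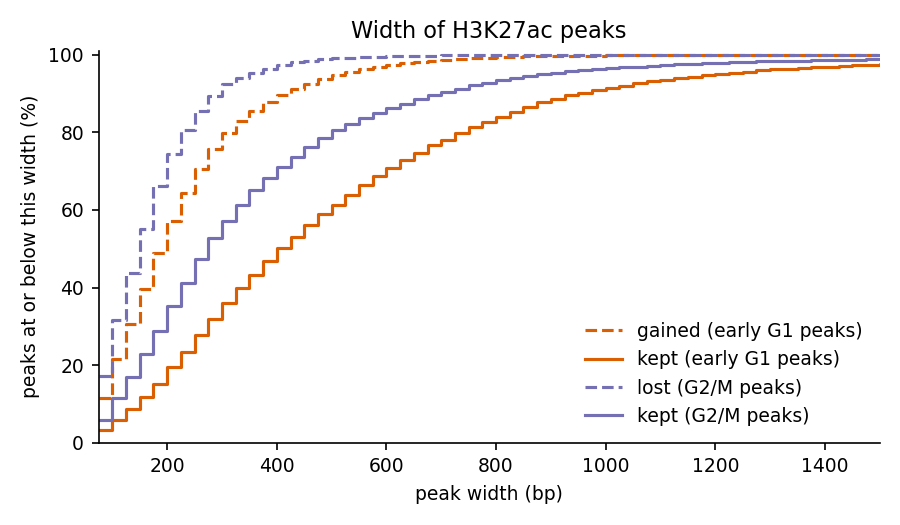
Curves give the share of peaks (vertical axis, percent) at or below a given width (horizontal axis, bp) for gained and kept early G1 peaks and for lost and kept G2/M peaks. Dashed curves, gained and lost, climb at smaller widths (medians 200 and 150 bp) than the solid curves of kept peaks (400 and 275 bp).

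At like width the classes still differed among early G1 peaks and among G2/M peaks narrower than 500 bp, but not clearly among wider G2/M peaks. Early G1 peaks of 500 to 975 bp were kept in 62.1% of cases at H3K4me3 (59.9 to 64.2, n = 2037) and in 85.3% at distal places (83.8 to 86.8, n = 2175). G2/M peaks of the same widths were kept in 96.4% of cases at H3K4me3 (94.1 to 98.0, n = 413) and 96.2% at distal places (95.1 to 97.2, n = 1373). For the narrowest G2/M peaks, 75 to 150 bp, the shares were 65.7% at H3K4me3 (63.0 to 68.3) and 31.7% at distal places (30.3 to 33.1).

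To compare heights, each height was divided by the median over kept peaks of its own list, 31.8 in early G1 and 19.9 in G2/M. On this scale gained peaks had a median of 0.752 and lost peaks 0.813. Among gained peaks, 24.1% of those at H3K4me3 and 7.42% of the distal ones stood above the kept median. Among lost peaks the shares were 23.4% at H3K4me3 and 12.3% at distal places.

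At places acetylated in both fractions, relative height in early G1 against G2/M was higher at H3K4me3 than at distal regions. Kept peaks formed 10042 merged regions, 9480 of them with heights, and the tallest peak of each list was used. At the 2560 regions with H3K4me3 in both fractions, the median relative height was 1.22 in early G1 and 1.01 in G2/M, and the median log2 ratio of early G1 over G2/M was 0.21 (interval of the median 0.18 to 0.23, quartiles -0.11 and 0.56). At the 5333 distal regions the medians were 0.961 and 1.04, and the median log2 ratio was -0.13 (-0.14 to -0.11, quartiles -0.40 and 0.16). The 1054 flanking regions had a median log2 ratio of -0.19 (-0.23 to -0.15). The ratio was above 0 at 67.2% of the H3K4me3 regions and at 37.2% of the distal regions.

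The gap of 0.34 between the H3K4me3 and distal medians (log2) does not depend on the divisor of the heights, while the sign of each median does. With heights as deposited the H3K4me3 median was 0.88 and the distal median 0.54, and with heights scaled on kept H3K4me3 peaks they were -0.05 and -0.39. The gap lay above 0 on each of 21 chromosomes, from 0.12 on chromosome 15 to 0.50 on chromosome 21. Chromosomes share the same 2 libraries and are no replicates.

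**Figure D4:**
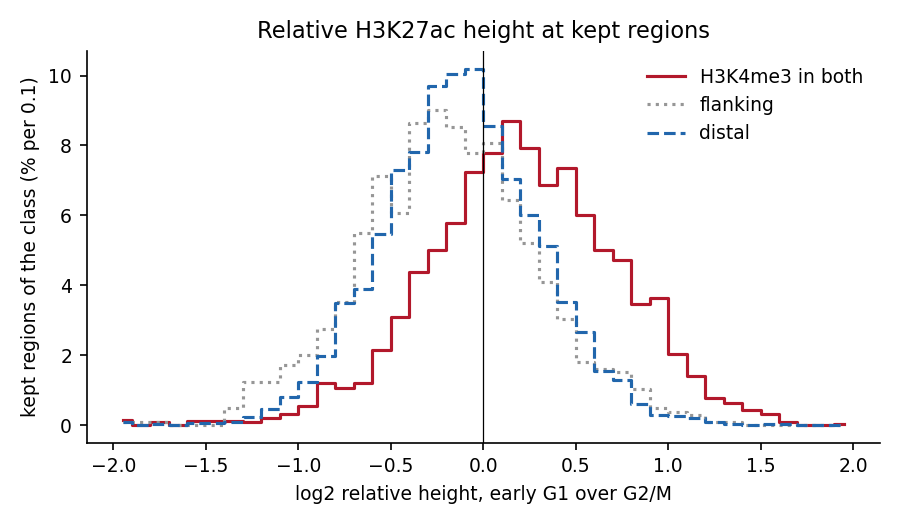
Steps give the share of kept regions of a class (vertical axis, percent per bin of 0.1) by the log2 ratio of relative H3K27ac height, early G1 over G2/M (horizontal axis), for regions with H3K4me3 in both fractions, flanking regions and distal regions; values beyond the axis are counted in the end bins. The H3K4me3 curve lies to the right, with a median of 0.21, against -0.13 for distal and -0.19 for flanking regions.

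Changes of 2-fold or more in relative height were few. Over all kept regions, 212 (2.24%) were at least 2-fold higher in early G1 and 195 (2.06%) at least 2-fold lower. Regions with H3K4me3 in both fractions held 146 of those higher (5.70% of them, 4.84 to 6.67) and 30 of those lower (1.17%, 0.792 to 1.67). Distal regions held 30 higher (0.563%, 0.3799 to 0.802) and 93 lower (1.74%, 1.41 to 2.13). Flanking regions held 9 higher (0.854%, 0.391 to 1.61) and 52 lower (4.93%, 3.71 to 6.42). Of the 96 regions with H3K4me3 in G2/M only, 0 were higher and 20 lower (20.8%, 13.2 to 30.3), and their median log2 ratio was -0.43. Of the 437 with H3K4me3 in early G1 only, 27 were higher (6.18%, 4.11 to 8.86) and 0 lower, and their median was 0.14. These counts rest on the scale: 2116 regions were higher and 21 lower with heights as deposited, and 62 higher and 626 lower when scaled on H3K4me3 peaks.

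Most kept regions with H3K4me3 in both fractions were also wider in early G1. The acetylated length per region had a median of 525 bp in early G1 and 275 bp in G2/M at regions with H3K4me3 in both, and the early G1 length was the greater at 83.5% of them. At distal regions the medians were 425 bp in early G1 and 325 bp in G2/M, with early G1 wider at 59.8% and G2/M wider at 35.8%. The 96 regions with heights and with H3K4me3 in G2/M only went the other way, with medians of 337.5 bp in early G1 and 450 bp in G2/M, early G1 wider at 35.4% and G2/M wider at 59.4%. Most regions matched 1 peak to 1 peak (7999, 79.7%), while 1226 (12.2%) set 1 early G1 peak against several G2/M peaks and 541 (5.39%) the reverse.

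Seen from the promoter mark, more H3K4me3 regions were acetylated in early G1 than in G2/M, and most of those acetylated in G2/M were acetylated in early G1 too. H3K4me3 peaks of the 2 fractions merged into 18676 regions listed in both. Of these, 7476 (40.03%, 39.3 to 40.7) carried an H3K27ac peak in early G1 and 2722 (14.6%, 14.1 to 15.1) in G2/M. Both fractions acetylated 2566 regions, early G1 alone 4910 (26.3%), G2/M alone 156 (0.835%) and neither 11044 (59.1%). List length moves these shares: with equal numbers of H3K27ac peaks, 19.5% were acetylated in early G1 alone and 1.55% in G2/M alone.

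The 4 sets differed in the H3K4me3 they carried. Regions of the set with neither are called unacetylated, which means without an H3K27ac peak in the early G1 and G2/M lists. The late G1 and S phase lists were not used for this set. The H3K4me3 peak had a median width of 1700 bp in early G1 and 1250 bp in G2/M at regions acetylated in both. At regions acetylated in early G1 alone it was 1250 bp in early G1 and 975 bp in G2/M, and at unacetylated regions 675 and 575 bp. H3K4me3 height, scaled on all 18676 regions, differed between the sets. Its median log2 ratio of early G1 over G2/M was 0.32 at regions acetylated in both, 0.34 at those acetylated in early G1 alone, -0.42 at those acetylated in G2/M alone and -0.13 at unacetylated regions. The part of H3K4me3 itself in the acetylation results was not tested. H3K27me3 overlapped 32.1% of unacetylated regions (31.3 to 33.0), 4.58% of those acetylated in early G1 alone (4.01 to 5.21) and 1.91% of those acetylated in both (1.42 to 2.52). Of the 156 regions acetylated in G2/M alone, 31 (19.9%, 13.9 to 27.005) carried it.

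Wide H3K4me3 regions were acetylated most often in both fractions, and the ratio between the fractions was smallest there. In 5 groups of equal size by H3K4me3 width, the narrowest had a median width of 275 bp, and 15.9% of its regions carried H3K27ac in early G1 (14.8 to 17.1) and 4.42% in G2/M (3.78 to 5.13), a ratio of 3.61. In the middle group, with a median of 850 bp, the shares were 35.2% in early G1 (33.7 to 36.8) and 8.78% in G2/M (7.89 to 9.74), a ratio of 4.01. In the widest group, with a median of 1900 bp, they were 72.8% in early G1 (71.3 to 74.2) and 36.3% in G2/M (34.8 to 37.9), a ratio of 2.003. A wider region has more room for an H3K27ac peak, and a ratio has less room to rise where the G2/M share is high. Neither was adjusted for. Bivalent regions, those with H3K27me3 in either fraction, were acetylated in 7.11% of cases in early G1 (6.32 to 7.96) and 2.08% in G2/M (1.65 to 2.58), against 48.6% in early G1 and 17.8% in G2/M for regions without it.

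**Figure D5:**
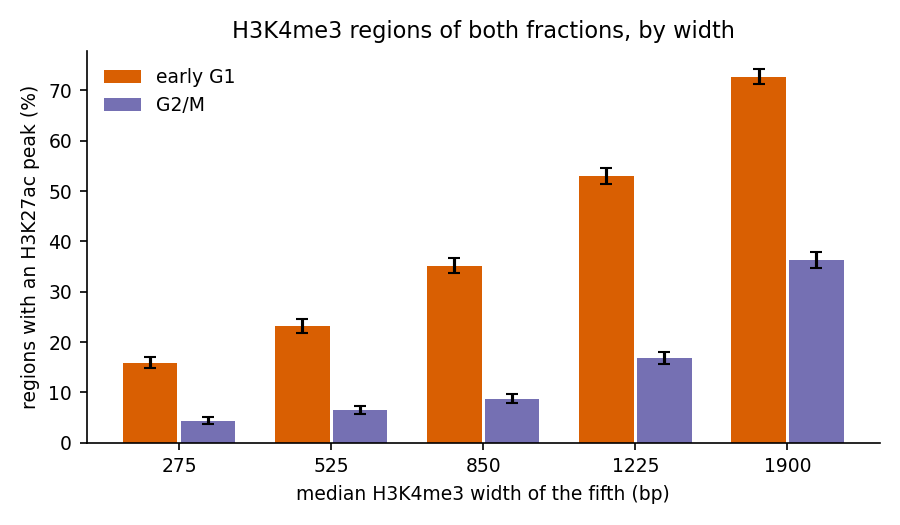
Bars give the share of H3K4me3 regions of both fractions that carried an H3K27ac peak (vertical axis, percent, with exact 95% intervals) in early G1 and G2/M, for 5 equal groups of regions by H3K4me3 width (horizontal axis, median width in bp). Early G1 stands above G2/M in each group, at 72.8% and 36.3% in the widest.

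In early G1, the maxima of gained peaks at H3K4me3 lay nearer the H3K4me3 centre than those of kept peaks, at medians of 238 and 302 bp. The H3K27ac maximum lay in the inner part, less than halfway from the H3K4me3 centre to the edge, in 63.0% of gained and 56.7% of kept early G1 peaks. It lay in the outer part in 33.8% and 35.6%. These shares count all peaks at H3K4me3, and the maximum lay inside the H3K4me3 peak for 96.8% of gained and 92.3% of kept early G1 peaks. Part of the difference in inner share thus comes from maxima outside H3K4me3. In the G2/M list the maximum lay in the inner part in 42.7% of lost and 50.03% of kept peaks. The median distance from the H3K27ac maximum to the H3K4me3 maximum was 157 bp for gained and 224 bp for kept early G1 peaks, and 255 bp for lost and 234 bp for kept G2/M peaks. The H3K4me3 peaks under gained and kept early G1 peaks differed in width as well, with medians of 1500 and 1700 bp.

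Isolated distal peaks had the fewest partners. When distal peaks within 12.5 kb of each other were joined into clusters, lone peaks were kept in 829 of 3642 cases in early G1 (22.8%, 21.4 to 24.2) and in 1068 of 2948 in G2/M (36.2%, 34.5 to 37.99). Of clusters with 4 or more peaks, 800 of 845 in early G1 (94.7%, 92.9 to 96.1) and 786 of 800 in G2/M (98.3%, 97.1 to 99.0) had at least 1 kept peak. Inside these large clusters 53.1% of early G1 peaks (51.6 to 54.5) and 65.3% of G2/M peaks (63.8 to 66.7) were kept, so single peaks differed within clusters listed in both fractions. Larger clusters offer more peaks to match, and this was not adjusted for.

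Most gained and lost peaks were absent from the lists of the other fractions. The late G1 list held 32521 peaks covering 9.44 Mb and the S phase list 10268 covering 2.53 Mb. The shorter S phase list leaves less room for a match, and this was not adjusted for. Of gained peaks, 32.7% were listed in late G1 (32.1 to 33.4), 4.31% in S phase (4.03 to 4.61) and 66.3% in no other H3K27ac list (65.7 to 67.0). Kept early G1 peaks were listed in late G1 in 83.4% of cases (82.7 to 84.1) and in S phase in 50.2% (49.3 to 51.2). Gained peaks at H3K4me3 were listed in late G1 in 29.8% (28.9 to 30.8) and in S phase in 2.43% (2.12 to 2.77), distal ones in 36.1% (35.1 to 37.2) and 6.38% (5.87 to 6.93). Of lost peaks, 42.5% were listed in late G1 (41.4 to 43.7), 13.9% in S phase (13.1 to 14.7) and 54.2% in no other list (53.1 to 55.3).

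The early G1 list also stood apart in make-up from the remaining lists. H3K4me3 peaks of the same fraction overlapped 40.5% of H3K27ac peaks in early G1, 21.6% in late G1, 18.3% in S phase and 20.9% in G2/M. At the next step, late G1 over early G1, the gap in log2 relative height between H3K4me3 and distal regions was -0.29, against 0.34 for early G1 over G2/M, and these steps share the early G1 library. Over S phase it was 0.03 for G2/M, and S over late G1 gave -0.14. With 1 library per fraction, a property of the early G1 library and a property of early G1 cells cannot be told apart.

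H3K4me1 and H3K27me3 overlapped few H3K27ac peaks, whether gained, lost or kept. H3K4me1, a mark of enhancers, overlapped 1.13% of gained (0.984 to 1.29) and 2.71% of kept early G1 peaks (2.42 to 3.04), and 7.29% of lost (6.72 to 7.90) and 5.35% of kept G2/M peaks (4.95 to 5.77). The H3K4me1 lists themselves held 1878 peaks covering 0.248 Mb in early G1 and 6156 covering 0.906 Mb in G2/M, which leaves little room for overlap. H3K27me3 overlapped 1.44% of gained peaks and 0.594% of kept early G1 peaks, and 1.64% of lost and 0.379% of kept G2/M peaks. Of the 872 lost peaks at H3K4me3, 104 lay on H3K27me3 (11.9%, 9.85 to 14.3), against 0.811% of kept G2/M peaks at H3K4me3. Without such places the share of lost peaks at H3K4me3 was 10.2%.

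Single places were named, in coordinates read as hg19, only from peaks off H3K27me3 of their own fraction and with scores no weaker than the list median, so extremes below are those within these limits. The 5 tallest gained peaks at H3K4me3 lay on H3K4me3 listed in every fraction. Of all 8931 gained peaks at H3K4me3, 88.6% lay on G2/M H3K4me3, near the 89.0% of kept early G1 peaks at H3K4me3. The tallest gained peak, at chr1:41157301-41157675, had a height of 97.9 in early G1, 3.08 times the kept median, and 32.5 in late G1. It was listed in neither S phase nor G2/M. The same pattern, early and late G1 alone, held at chr9:135819476-135820250 with heights of 86.5 in early G1 and 35.4 in late G1, and at chr7:10979226-10980050 with 85.9 and 43.6. It also held at chr1:11072401-11072925, with 82.6 in early G1 and 26.5 in late G1, and at chr17:41465826-41466425, with 81.5 and 50.003. The widest gained peak, chr20:49573726-49575450, spanned 1725 bp with an early G1 height of 52.8.

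The tallest distal gained peaks were lower. The peak at chr7:101796251-101797225, 132201 bp from the nearest H3K4me3, had heights of 58.4 in early G1, 37.0 in late G1 and 14.3 in S phase. At chr1:53442151-53442500 the heights were 56.8 in early G1 and 21.4 in late G1, and at chr16:11409676-11410500 56.8 and 25.7. The peak at chr20:46187026-46187300 was listed in early G1 alone, with a height of 56.1.

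The tallest lost peaks were mostly listed in late G1 and S phase as well, while 812 of all 7665 lost peaks (10.6%, 9.91 to 11.3) were. At H3K4me3, chr6:21593451-21593825 had heights of 45.7 in late G1, 38.5 in S phase and 68.7 in G2/M, and was without an early G1 peak of either H3K27ac or H3K4me3. The peak at chr10:134386226-134388125 had 118 in late G1, 25.1 in S phase and 44.1 in G2/M, and carried H3K4me1 in those same 3 fractions. Among distal places, chr13:113527101-113527575 had 111 in late G1, 33.0 in S phase and 43.2 in G2/M. The peak at chr10:13715426-13715725 was listed in S phase and not in late G1, and chr5:179482251-179482575 in neither. The widest distal lost peak, chr19:16985351-16986700, had 53.5 in late G1, 27.4 in S phase and 27.8 in G2/M. Some of these places were listed for several marks, among them chr1:230320851-230321225, with H3K4me1 in S phase and G2/M and H3K27me3 in S phase. The part of such shared listing in these results was not tested.

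Kept regions at H3K4me3 ran from log2 ratios of -2.28 to 1.99 and distal ones from -2.51 to 1.62, before the naming limits. At chr3:57582126-57583100 the height was 91.6 in early G1 and 18.6 in G2/M, a log2 ratio of relative height of 1.62, and the acetylated length was 975 bp in early G1 and 575 bp in G2/M. At chr12:125398626-125399475 it was 83.3 in early G1 and 17.9 in G2/M (1.54), with lengths of 850 and 125 bp. Among regions within the limits, the lowest ratios were found at chr15:82338801-82339250, with 29.1 in early G1 and 77.8 in G2/M (-2.09), and at chr1:150207801-150208475, with 35.9 and 90.1 (-2.003). The chr15 region was also listed for H3K27me3 in late G1, and the chr1 and chr12 regions in S phase. Among distal regions within the limits, the largest ratio was 1.30 at chr3:48507201-48508250, with heights of 70.1 in early G1 and 17.9 in G2/M, and the smallest was -2.51 at chr1:214204176-214204600, with 29.3 in early G1 and 104.8 in G2/M. The distal region within the limits with the highest mean of the 2 relative heights, chr6:74288501-74291375, had relative heights of 3.06 in early G1 and 3.35 in G2/M (-0.13), and was listed in all 4 fractions without H3K4me3 or H3K4me1.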

How the data were processed

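Each deposited file lists the peaks of a single ChIP-seq library in 7 columns without a header, read from their values as chromosome code, start, end, width, maximum, height and a negative score. The height is the authors' deposited signal, of unstated scale, and the deposited score is the authors' too, also of unstated scale, with more negative values read as stronger. The submitters' processing notes name Bowtie 0.12.7, hg19 and mm9 and give none of them a role. Coordinates are as deposited and were read as hg19. The sources used here do not state the peak caller's settings or any use of inputs, and inputs and a 4C table were not analysed here. Heights of 0 were treated as missing. No hg19 annotation was used, so no gene is named and the planned gene lists were not applied.

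Matching and counting ran in Python 3.11.15 with scipy 1.17.1, pandas 2.3.3 and numpy 2.4.6, and plotting in matplotlib 3.10.9; the matching, classes and ratios were tested on simulated data. Intervals are Clopper-Pearson, those of medians use binomial order statistics, and both treat peaks as independent. Named regions are part of a fixed set: the tallest and widest gained and lost peaks, and the tallest kept regions and those with extreme ratios, in the H3K4me3 and distal classes. H3K27me3 peaks of the same fraction, heights of 0 and scores weaker than the list median were left out of the naming. The samples, classes and rules were chosen with earlier results of these data known, and the height bins, width ranges, clusters, positions within H3K4me3 peaks and steps between other fractions were added after the files were seen. Alternatives changed the overlap, list length, peak width, distances, H3K4me3 list and height scale.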

Additional observations from a re-analysis of the deposited data

How the results depend on the processing

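Of 78 recomputed values, 35 stayed within their interval or within 1.5 times the count, 41 moved and 2 changed sign. The 35 include values that could not move: the H3K4me3 shares under the 10 kb distal limit, and the gap between the log2 medians under another divisor. The 41 include the values by rank, which are in percentile points and were set against log2 intervals, so that label has no meaning for them. The H3K4me3 share was higher in gained peaks, and lower in lost peaks, than in kept early G1 peaks under every alternative that gave these shares. With 50% overlap these shares were 45.3% for gained and 12.5% for lost peaks, and kept early G1 width was 450 bp. With the better-scored 15084 early G1 and 9762 G2/M peaks there were 9252 gained and 3547 lost peaks, H3K4me3 shares of 58.2% (gained), 31.4% (kept early G1) and 15.4% (lost), and widths of 325, 575, 250 and 400 bp (gained, kept early G1, lost, kept G2/M). H3K4me3 regions acetylated in early G1 only were then 19.5% and in G2/M only 0.985%. With equal numbers of peaks, 10474 were gained and 9199 lost, shares were 56.9% (gained) and 33.0% (kept early G1), widths 275 bp (gained) and 475 bp (kept early G1), and acetylation in early G1 only was 19.5%, in G2/M only 1.55%. At equal list length the gained and lost numbers can differ only through unequal numbers of peaks per match, so their closeness there follows from the construction. With peaks of at least 250 bp, 9469 were gained and 2456 lost, shares were 55.2% (gained), 28.4% (kept early G1) and 12.8% (lost), log2 medians 0.18 (H3K4me3), -0.10 (distal) and 0.28 (their difference), and acetylation in early G1 only was 19.4%, in G2/M only 0.530%. With a partner allowed within 500 bp, 14529 were gained and 4180 lost. H3K4me3 of any fraction gave 47.7%, 31.7% and 14.9% (gained, kept early G1, lost), and leaving out H3K27me3 places gave 10.2% for lost peaks. A distal limit of 10 kb left the H3K4me3 shares unchanged, since it moves peaks between the distal and flanking classes alone.

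Heights as deposited shift every log2 ratio by 0.67 and gave 0.88 (H3K4me3) and 0.54 (distal, which was negative before). Scaling on H3K4me3 peaks gave -0.054 (H3K4me3, which was positive before) and -0.39 (distal). These sign changes follow from the divisor. With ranks within the list, the median differences in percentile points were 14.7 (H3K4me3), -0.0612 (distal, interval -0.581 to 0.474) and 14.8 (their difference). No paired analysis was possible because each mark had 1 library per fraction, and for the same reason no replicate could be left out. Read depth is unknown, so an unlisted peak may lie just under the caller's limit.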

Other observations

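The excess of early G1 peaks was uneven between chromosomes. Chromosome 19 had 1232 H3K27ac peaks in early G1 and 397 in G2/M, a ratio of 3.10, followed by chromosome 17 with 1110 and 481 (2.31) and chromosome 16 with 901 and 418 (2.16). Chromosome 4 had the smallest ratio among chromosomes 1 to 21, 1.21, from 1543 early G1 and 1272 G2/M peaks. H3K4me3 overlapped 65.02% of early G1 and 53.4% of G2/M peaks on chromosome 19, and 33.3% of early G1 and 15.6% of G2/M peaks on chromosome 4. The share at H3K4me3 was higher in early G1 than in G2/M on each of these 21 chromosomes.

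H3K4me3 regions listed in 1 of the 2 fractions were acetylated less often than shared ones. Of 4540 regions with H3K4me3 in early G1 and not in G2/M, 812 carried H3K27ac in early G1 (17.9%, 16.8 to 19.03). Of 6503 regions with H3K4me3 in G2/M and not in early G1, 276 carried H3K27ac in G2/M (4.24%, 3.77 to 4.76). Gained peaks lay within 1 kb of a kept peak in 25.6% of cases (24.99 to 26.2), and lost peaks in 33.4% (32.4 to 34.5).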
